A study of Bos grunniens with 6 samples.

Results

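miR-335, miR-149, miR-224 and miR-452 are miRNAs that, in human, lie within introns of protein-coding host genes: MEST for miR-335, GPC1 for miR-149, and GABRE for both miR-224 and miR-452. The miRNAs were chosen by name from a small-RNA sequencing table of cultured yak (Bos grunniens) hair follicle cells, and 5 of its 2853 entries carry these names: bta-miR-335, bta-miR-149-5p, bta-miR-149-3p, bta-miR-224 and bta-miR-452, written below without the cattle prefix. The groups were dermal papilla (DP) cells, a mesenchymal cluster that signals to the follicle, and hair matrix (HM) cells, the dividing epithelium from which the hair shaft grows. Both groups were wild-type skin cells, isolated and grown in DMEM/F12 medium with serum, IGF1 and EGF, with 3 libraries each. The sample titles call the libraries of each group biological replicates. The labels do not say which animals or cultures these came from and give no ages, so the p-values given here measure the spread between these libraries.

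A miRNA in an intron can be cut out of the same primary transcript as the host mRNA, so its level can follow the activity of the host promoter, although some such miRNAs also have promoters of their own. The mature strand is loaded into an Argonaute protein and finds target mRNAs mainly through its seed, bases 2 to 8. MEST is an imprinted gene expressed from the paternal copy, GPC1 encodes a glypican, a cell-surface heparan sulfate proteoglycan, and GABRE encodes the epsilon subunit of the GABA-A receptor. The host mRNAs were not analysed here. MEST, GPC1 and GABRE each stand once as a protein-coding gene in the RefSeq gene table of yak, where the intronic position of the miRNAs could not be looked up.

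The sequences of the 5 entries are shown because they give the seed of each entry as listed. The values do not show at which base single reads began. They are as deposited, as DNA and 5′ to 3′, with the seed in capitals.
miR-335: tCAAGAGCaataacgaaaaatgt
miR-149-5p: tCTGGCTCcgtgtcttcactccc
miR-149-3p: gAGGGAGGgacgggggctgtgc
miR-224: cAAGTCACtagtggttccgttta
miR-452: tGTTTGCAgaggaaactgagac

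The 5 seeds all differ from each other, and no other entry was near-identical to any of the 5 (1 mismatch or none across 18 or more bases), so no listed near-copy could share their reads. The entries sit far apart in base composition. In miR-335, 7 of 23 bases are G or C (30.4%), and 4.97% of the 503 entries tested below had a lower share. In miR-149-3p, 17 of 22 bases are G or C (77.3%), 14 of them G, and 97.8% of tested entries had a lower share. The median over tested entries was 47.6%, close to the 45.5% of miR-452 and the 43.5% of miR-224, whereas miR-149-5p had 60.9%.

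Seeds of the members were rare among the other entries. No other entry had the seed of miR-335, miR-224 or miR-452. The seed of miR-149-5p was shared by 1 predicted entry, with 2 reads over all libraries. That of miR-149-3p was shared by 4 entries, each with at most 4 reads over all libraries, of which miR-7865, with 1 read, has a cattle name. The predicted entry and miR-7865 are shown to set their seeds beside those of the members.
miR-7865: cAGGGAGGgcaggggaggg
predicted entry with the miR-149-5p seed: tCTGGCTCcgcccctcctcaga

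Values are RPM: the reads of an entry divided by the library total and multiplied by a fixed number. Library totals were 23904796 to 24693655, with 71.7% to 73.5% on listed entries, and 3 reads, used as a floor, equal 0.121 to 0.125 RPM. Floors and intervals (95%, exact Clopper-Pearson) cover counting error only. The cell type labels were set beside marker miRNAs. The marker lists were chosen with earlier results of these data known, so this is no independent check. All 11 entries found for the 12 names of the epithelial list, such as the miR-200 family, were called higher in HM cells. Over all tested entries 19.9% were. The epithelial sums were 397 to 472 RPM in DP libraries and 84500 to 87216 RPM in HM libraries. All 7 entries of the mesenchymal list, such as miR-143 and miR-199a, were called higher in DP cells, against 25.2% of all tested entries. The mesenchymal sums were 88573 to 91336 RPM in DP libraries and 1206 to 1423 RPM in HM libraries. No entry of either list was at 0 in a cell type. Sums of the lists for other cell types were lower than those of both lists. For blood and immune cells they were 20.2 to 23.0 RPM in DP and 9.11 to 12.5 RPM in HM libraries. For endothelium they were 3.68 to 4.70 RPM in DP and 2.57 to 4.01 RPM in HM libraries. For muscle they were 58.4 to 72.9 RPM in DP and 40.95 to 42.6 RPM in HM libraries. For neural cells and melanocytes they were 117 to 137 RPM in DP and 34.3 to 37.9 RPM in HM libraries. Of 2 tested muscle entries, 1 was called higher in DP and 1 higher in HM cells. Of 2 tested neural entries, 1 was called higher in DP cells. No blood or endothelial entry was called. Among all entries of these lists, 1 of the blood list and 1 of the neural list had no read in DP libraries, and 1 of the muscle list had none in HM libraries. In bulk cultures such as these, fewer cells that make a miRNA and less of it per cell cannot be told apart.

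The 5 miRNAs did not share 1 pattern. Both miRNAs of GABRE and both arms of miR-149 were higher in DP cells, and miR-335 was the opposite. An entry was called where limma, run on log2(RPM + 1) for the 503 entries that reached 1 RPM in 3 or more libraries, gave a difference of 2-fold or more with an adjusted p below 0.05. By that rule all 5 were called, against 45.1% of all tested entries: 4 of the 5 were higher in DP cells, against 25.2% of all tested entries, and 1 was called higher in HM cells, against 19.9%. For none of the 5 did DP and HM libraries overlap, which was so for 84.1% of all tested entries. These miRNAs were chosen with this contrast in view, so the differences below are a description, and no p is given for them. All 5 passed the filter on low values, but miR-335 reached 1 RPM in HM libraries only and miR-149-3p in DP libraries only, so for these 2 the filter alone keeps the groups apart. The other 3 reached 1 RPM in all 6 libraries.

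miR-335, the miRNA of the imprinted host MEST, is known in human for repressing SOX4 and tenascin C in breast cancer cells and RUNX2 in mesenchymal stem cells. It had 0.837, 0.543 and 0.577 RPM in the DP libraries, against 96.1, 98.7 and 93.4 RPM in the HM libraries. All HM libraries lay far above all DP libraries. The DP values rest on 20, 13 and 14 reads and the HM values on 2374, 2417 and 2243 reads, all above the floor. The means of 0.652 ± 0.161 RPM in DP cells and 96.1 ± 2.64 RPM in HM cells (SD, n = 3 each) differ 147-fold, with a counting interval of 111 to 201. On the log2(RPM + 1) scale, which understates changes of low entries, the difference (DP minus HM, as throughout) was -5.88 ± 0.090 (SE). It was -3.32 with a pseudocount of 10 RPM and -7.22 in edgeR on whole reads.

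Among all tested entries, 12 had a larger difference in this direction, and miR-335 ranked 450th of 503 by mean level in DP cells and 118th in HM cells. Its DP level was 0.679% of its HM level. The summed epithelial markers in DP libraries came to 0.515% of their HM sum. That sum was mostly miR-184, at 331 of 443 RPM in DP cells and 59426 of 85997 RPM in HM cells. The share differed between markers, from miR-96, at 1.28 RPM in DP and 563 RPM in HM cells, to miR-205, at 27.7 and 963 RPM. miR-184, miR-96 and miR-205 were named after their values were seen. The part of epithelial cells or reads in the miR-335 reads of the DP libraries was not tested.

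miR-149-5p is the abundant arm of the GPC1 miRNA, and its opposite arm miR-149-3p is known in human for targeting AKT1 and E2F1. miR-149-5p had 281, 283 and 322 RPM in DP libraries, against 16.7, 18.1 and 21.7 RPM in HM libraries. The lowest DP library was above the highest HM library by more than the range within either group. The means were 295 ± 22.8 RPM in DP cells and 18.8 ± 2.56 RPM in HM cells (SD, n = 3 each), a 15.7-fold difference and a log2 difference of 3.91 ± 0.106 (SE). Of all tested entries, 36 had a larger difference in this direction. It ranked 89th of 503 in DP cells and 178th in HM cells.

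miR-149-3p was near the limit of detection. It had 1.59, 1.42 and 1.98 RPM in DP libraries, from 38, 34 and 48 reads, against 0.0810, 0 and 0.0833 RPM in HM libraries, from 2, 0 and 2 reads. Every HM value lay under the floor of 3 reads per library, so only the summed reads, 120 in DP cells and 4 in HM cells, allow a ratio. The ratio of mean RPM was 30.4, with a counting interval of 11.6 to 114, which includes the 15.7 of the other arm. On the log2(RPM + 1) scale the difference was 1.33 ± 0.099 (SE), and it was 0.21, under 2-fold, with a pseudocount of 10 RPM and 4.78 in edgeR on whole reads.

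The strands of miR-149 were unequal in both cell types. miR-149-5p had 177, 199.5 and 162.5 reads for each miR-149-3p read in the DP libraries, and 206 and 260 in HM replicates 1 and 3. HM replicate 2 had no miR-149-3p read and gives no ratio. Over the summed reads the 3p arm made up 0.560% (0.464% to 0.669%) of miR-149 reads in DP cells and 0.290% (0.0790% to 0.740%) in HM cells. The intervals overlap, and a difference in strand use between the cell types was not detectable at this depth.

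**Figure D1:**
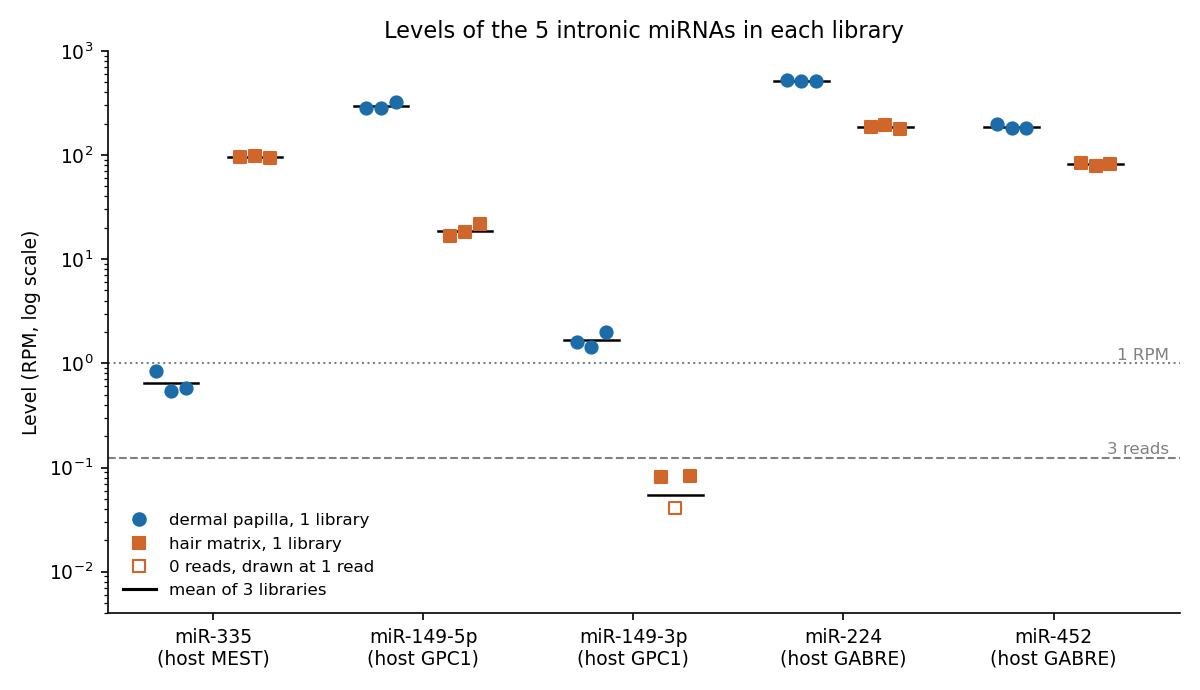
Level of each miRNA in RPM (log axis) in the 3 dermal papilla libraries (circles) and the 3 hair matrix libraries (squares, open where a library has 0 reads and is drawn at 1 read), with the mean of each group as a bar, and lines at 1 RPM and at 3 reads. miR-335 lies at 0.543 to 0.837 RPM in dermal papilla and 93.4 to 98.7 RPM in hair matrix libraries, and the other 4 are higher in dermal papilla libraries, with miR-149-3p under 3 reads in every hair matrix library.

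miR-224 and miR-452 share the host GABRE and were both higher in DP cells, by less than 3-fold. miR-224, known in mouse granulosa cells for acting on SMAD4, had 518, 518 and 512 RPM in DP libraries, against 184, 194 and 176 RPM in HM libraries. The DP libraries were nearly identical and all stood above the HM libraries. The means were 516 ± 3.38 RPM in DP cells and 185 ± 8.83 RPM in HM cells (SD, n = 3 each), 2.79-fold apart, with a log2 difference of 1.48 ± 0.051 (SE). It was the most abundant of the 5 in both cell types, 63rd of the 503 tested in DP cells and 90th in HM cells.

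miR-452, which acts on Wnt5a in the mouse neural crest, had 198, 180.1 and 182 RPM in DP libraries, against 83.0, 78.8 and 82.0 RPM in HM libraries. The groups did not overlap, and each spanned a range smaller than the gap between them. The means were 187 ± 9.68 RPM in DP cells and 81.3 ± 2.21 RPM in HM cells (SD, n = 3 each), 2.30-fold apart, with a log2 difference of 1.19 ± 0.059 (SE). This difference fell under 2-fold after median centring, at 0.91, and at 0.995 after rescaling without the 5 most abundant miRNAs. These scalings moved the median difference of all tested entries to -0.29 and -0.20, against -0.01 as deposited, and the sign of each of the 5 members was the same in every scaling. Rescaling without the 5 most abundant miRNAs also raised the values before the 1 was added, which lessened the weight of that 1. With it miR-335 moved to -6.93 and miR-149-3p to 2.56, so this setting is not a change of scaling alone.

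The ratio of the GABRE miRNAs to each other was higher in DP cells, given here as a description. A ratio of reads within 1 library is free of the library scaling. miR-224 had 2.62, 2.88 and 2.82 reads for each miR-452 read in DP libraries, against 2.21, 2.46 and 2.15 in HM libraries. The means were 2.77 ± 0.133 in DP cells and 2.28 ± 0.165 in HM cells (SD, n = 3 each), and the groups did not overlap. Together miR-224 and miR-452 reached 703 ± 11.6 RPM in DP cells and 266 ± 7.20 RPM in HM cells (SD, n = 3 each), or 0.0967% of listed reads in DP cells and 0.0366% in HM cells.

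**Figure D2:**
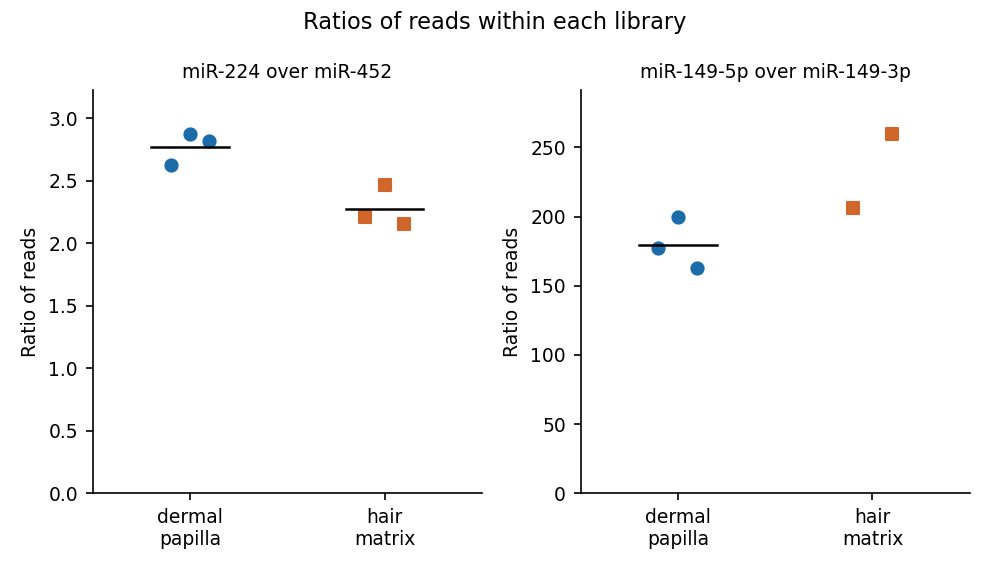
Ratio of reads within each library for the miRNAs that share a host, miR-224 over miR-452 (left) and miR-149-5p over miR-149-3p (right), with dermal papilla libraries as circles, hair matrix libraries as squares and bars at group means where all 3 libraries have a value. The miR-224 to miR-452 ratio is 2.62 to 2.88 in dermal papilla and 2.15 to 2.46 in hair matrix libraries, and hair matrix replicate 2 has no point on the right because it held no miR-149-3p read.

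The order of the 5 levels differed between the cell types. In DP cells it ran miR-224, miR-149-5p, miR-452, miR-149-3p, miR-335. In HM cells it ran miR-224, miR-335, miR-452, miR-149-5p, miR-149-3p. In neither cell type did neighbours in the order overlap in any library. The closest pair was miR-335 and miR-452 in HM cells, at 93.4 to 98.7 and 78.8 to 83.0 RPM, a ratio of 1.18. Reads of different miRNAs also depend on how well each sequence is ligated and amplified, and the part of this in the order was not tested.

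Grouped by human host, the miRNAs of GABRE made up 70.2% of the summed RPM of the 5 in DP cells and 69.8% in HM cells. Those of GPC1 made up 29.7% in DP cells and 4.96% in HM cells, and that of MEST 0.0652% in DP cells and 25.2% in HM cells. In sum the 5 reached 1000.4 ± 17.6 RPM in DP cells and 381 ± 8.11 RPM in HM cells (SD, n = 3 each), which is 0.138% of listed reads in DP cells and 0.0525% in HM cells.

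Replicates of the members varied to different degrees. miR-224 had a coefficient of variation of 0.655% in DP libraries, where counting alone gives 0.898%, and 4.78% in HM libraries, where counting gives 1.49%. miR-149-5p was the most variable of the well-covered members, at 7.70% in DP and 13.6% in HM libraries, against 1.19% and 4.67% from counting. In DP libraries the spread of miR-335, 24.6%, was close to the 25.3% that counting gives.

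**Figure D3:**
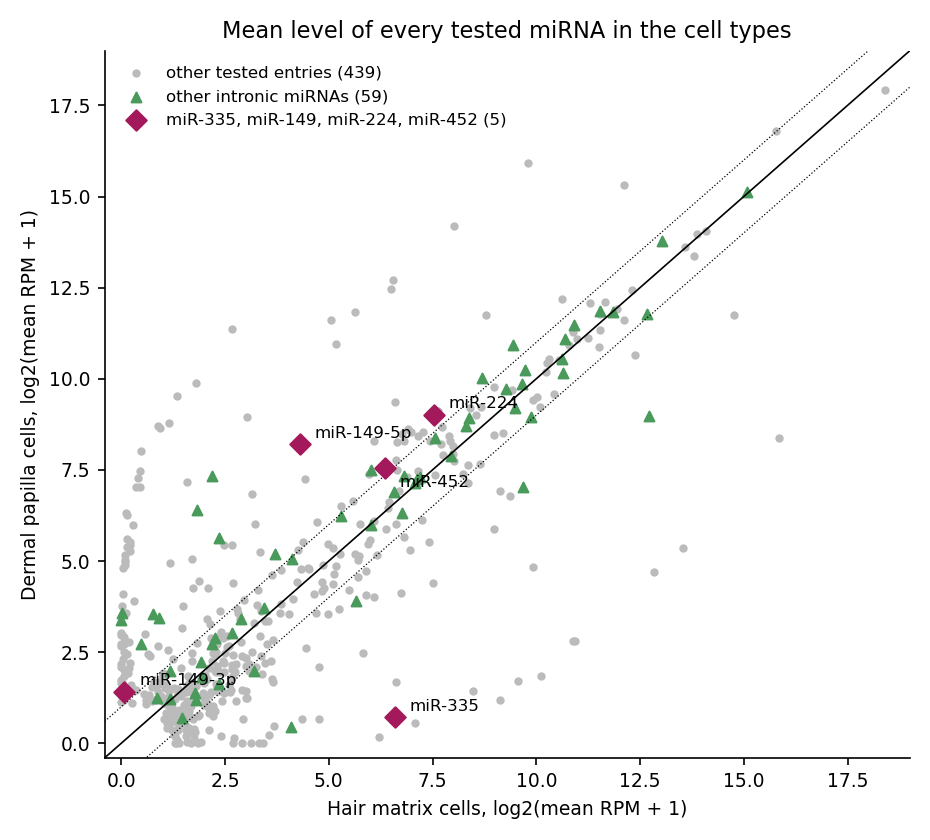
Mean level of each of the 503 tested entries in dermal papilla cells (vertical) and hair matrix cells (horizontal), as log2(mean RPM + 1), with the line of equality and dotted lines at 2-fold. miR-149-5p, miR-224, miR-452 and miR-149-3p (diamonds) lie above the upper 2-fold line, and miR-335, whose mean was 0.652 RPM in dermal papilla and 96.1 RPM in hair matrix libraries, lies far below the lower one.

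The entries whose profile over the 6 libraries was most like that of each member were found among 408 other tested entries with cattle names. Likeness was the root mean square difference of log2(RPM + 1) values, each centred on its mean over the libraries, and it is a description. For miR-224 the closest were miR-152, miR-328 and miR-148c, at 0.042, 0.046 and 0.052, where the median over all entries was 0.881. Of these, miR-152 and miR-328 lie in introns of COPZ2 and ELMO3 in human. miR-152 was at 1953 ± 33.6 RPM in DP cells and 691 ± 16.9 RPM in HM cells (SD, n = 3 each).

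For miR-452 the closest were miR-3432a, miR-376d and miR-181d, at 0.067, 0.072 and 0.089 (median 0.807), each of which has at least 1 near-identical entry that could share its reads. miR-376d was at 1.19 RPM in DP cells and 0 RPM in HM cells, so its likeness rests on the 1 RPM added before the log. For miR-335 the closest were miR-6121-3p, miR-10225a and miR-141, at 0.147, 0.184 and 0.344 (median 3.00). miR-141, a miRNA of the miR-200 family that marks epithelial cells, was at 0.459 ± 0.153 RPM in DP cells and 133 ± 5.62 RPM in HM cells (SD, n = 3 each). miR-6121-3p was at 0.569 ± 0.195 RPM in DP cells and 95.8 ± 13.8 RPM in HM cells (SD, n = 3 each). miR-10225a also has a near-identical entry.

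For miR-149-5p the closest were miR-655 and miR-758, of the imprinted DLK1-DIO3 cluster, and miR-3120, at 0.160, 0.169 and 0.172 (median 1.95). These were lower in level, at 16.1, 12.5 and 13.9 RPM in DP cells and 0.0275, 0.0136 and 0.233 RPM in HM cells. The HM means of miR-655 and miR-758 lay under the floor of 3 reads. The likeness is thus one of log2(RPM + 1) values and not of RPM ratios. For miR-149-3p the closest were miR-296-3p, miR-449c and miR-2387, at 0.052, 0.067 and 0.074 (median 0.830). miR-296-3p was at 371.5 ± 27.6 RPM in DP cells and 154 ± 11.1 RPM in HM cells (SD, n = 3 each). On this scale a member with 1.66 RPM in DP cells and an entry of far higher level thus had like differences, 1.33 and 1.27.

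Other miRNAs that lie in introns of protein-coding genes in human were described as a list of 76 names taken from general knowledge, of which 64 names were in the table, as 70 entries. In the list 59 entries were tested, and 13 were called higher in DP cells, 5 higher in HM cells and 41 were not called, of which 29 passed on the adjusted p but not on the fold. In the list 30.5% were called in either direction, against 45.1% of all tested entries, 25.2% higher in DP and 19.9% in HM cells. The counts were 13 and 9 after median centring, where those over all entries were 109 and 137, against 127 and 100 as deposited. The median log2 difference was 0.36 in the list and -0.01 over all tested entries. Of the 18 calls in the list, 7 were of entries that reached 1 RPM in 1 cell type only, so that their direction follows from the filter. Over all tested entries this was so for 102 of 227 calls.

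Among called entries of this list whose higher group averaged 100 RPM or more, miR-218, of the SLIT2 and SLIT3 genes, had the largest difference toward DP cells. It had 159, 158 and 162 RPM there, against 3.56, 2.90 and 4.08 RPM in HM cells (log2 difference 5.16 ± 0.103 SE). It was followed by miR-152, miR-328 and miR-532, the last from an intron of CLCN5, at log2 differences of 1.498, 1.48 and 1.33. These 3 lie close to the 1.48 of miR-224 and the 1.19 of miR-452. Toward HM cells the called entries at this level were miR-128, of R3HDM1 and ARPP21, and miR-140, of WWP2. miR-128 was at 503 ± 3.46 RPM in DP cells and 6704 ± 153 RPM in HM cells (SD, n = 3 each), with a log2 difference of -3.73. miR-140 had a log2 difference of -2.64. These entries of the list were picked by the size of this same difference, so no p is given for them.

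miRNAs that share a host could also be compared within other hosts. The 3 miRNAs of the MCM7 intron, miR-25, miR-93 and miR-106b, known for promoting the cell cycle, had log2 differences of 0.56, 0.13 and -0.02, and none was called. All 6 tested entries of CLCN5 had positive differences, of 0.53 to 1.33. Differences were positive for 250 of all 503 tested entries and 40 of the 59 in the list. Of the 6, 1, miR-532, was called, where 25.2% of all tested entries were called higher in DP cells. Other hosts counted were CDC20B, AOPEP, DALRD3, PTK2 and NSRP1. The 3 tested entries of CDC20B were all called higher in DP cells, 2 of them reaching 1 RPM in 1 cell type only. The 3 of AOPEP had positive differences, and 1 was called. DALRD3 had 2 positive and 1 negative, PTK2 1 of each and NSRP1 2 positive, none of them called. The nearest relatives of the GABRE miRNAs by host are miR-105a and miR-767, of GABRA3, another GABA-A receptor subunit gene. In the yak gene table GABRA3 and GABRE are separated by 1 protein-coding gene, MAGEA10. miR-105a and miR-767 were named after their values were seen.

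Both were higher in DP cells. miR-105a had 9.16, 9.27 and 9.65 RPM in DP libraries and no read in any HM library. Over the summed libraries these were 675 reads in DP cells and 0 in HM cells. miR-767 had 10.3, 9.82 and 12.6 RPM in DP libraries, against 0.0405, 0 and 0 RPM in HM libraries, or 786 reads against 1, with a counting interval of 143 to 31557 for the ratio. Both reached 1 RPM in DP libraries only, so the filter on low values fixed their direction, and 1 other entry of GABRA3 in the table was not tested. In HM cells miR-224 and miR-452 were at 78.8 RPM or more in every library, and miR-105a and miR-767 were at or under 1 read.

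**Figure D4:**
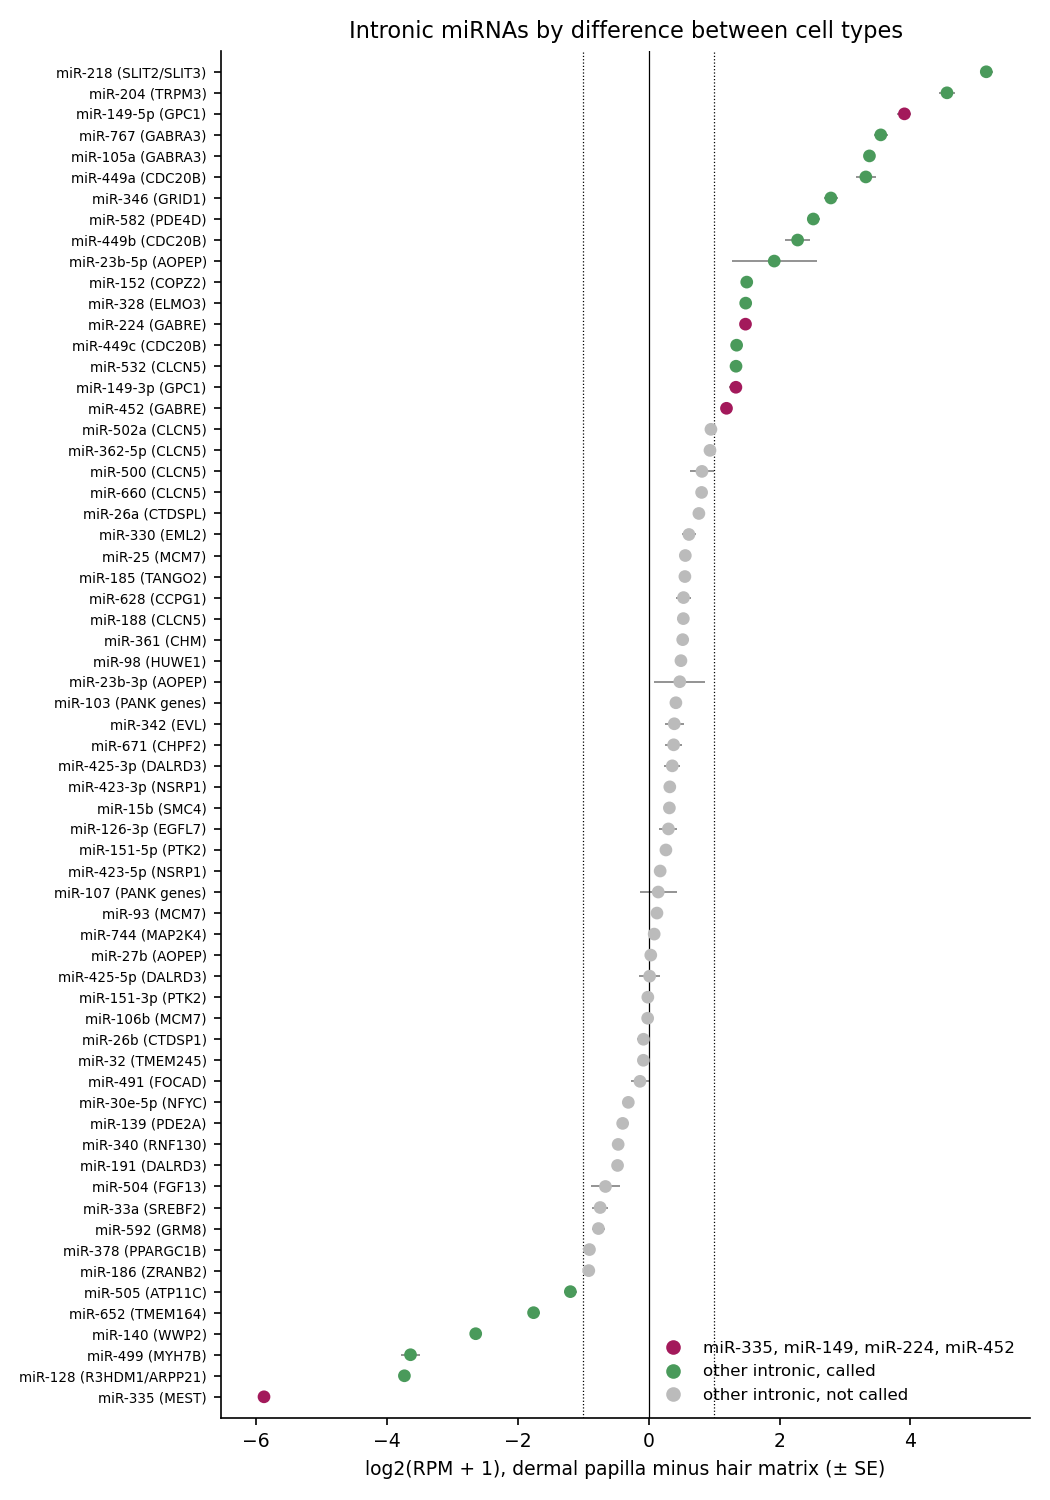
Log2 difference (dermal papilla minus hair matrix, log2(RPM + 1), bars are SE) of the 5 members and the 59 other tested intronic miRNAs, with host genes in brackets and dotted lines at 2-fold. On this scale miR-335, at -5.88, is at the bottom, miR-149-5p, at 3.91, is below miR-218 and miR-204 only (miR-204, named after its value was seen, has a near-identical entry), and miR-224, miR-149-3p and miR-452 lie between 1.19 and 1.48.

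Within the list, the call of miR-23b-5p, which was named after seeing its value, is uncertain: it shares all its bases with another entry, its log2 difference was 1.92 ± 0.646 (SE, limma adjusted p = 0.0272), and with the tested miRNAs held fixed it was lost without DP replicate 1, DP replicate 3, HM replicate 2 or HM replicate 3, at limma adjusted p of 0.0547, 0.104, 0.0905 and 0.0819. The other 17 calls were kept without any 1 library when the tested miRNAs were held fixed.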

How the data were processed

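Small-RNA libraries were made from total RNA with a TruSeq kit, per the labels' protocols. Tools listed, with no roles, in the submitters' processing notes are DESeq 1.20.0, HISAT2 2.2.1.0 and Trimmomatic. No build, miRNA reference or rule for multiply matching reads is given in the sources used here. The deposited values, called TPM by the authors, are RPM with no length term: 100% of the values of every library are multiples of the value of 1 read (tolerance 0.001 read). Whole reads and library totals were recovered from these steps.

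Entries were matched by name without the bta- prefix and arm. The 503 entries that reached 1 RPM in 3 or more libraries were fitted as log2(RPM + 1) by cell type in limma 3.58.1 (R 4.3.3), using a variance trend, and p-values were adjusted by Benjamini-Hochberg over the 503. The step was tested on simulated data. On the recovered reads edgeR 4.0.16 called 143 entries toward dermal papilla and 141 toward hair matrix cells.

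The 5 members, the list of intronic miRNAs and the marker lists were chosen with earlier results of these data known. Named miRNAs were the members, entries sharing their seed, the 3 most like each member, and the called intronic miRNAs with the largest differences (up to 4 in each direction, at least 100 RPM in the higher group). MCM7 and CLCN5 were planned as counts, and the single values of the 3 MCM7 miRNAs were added to that plan. The counts for CDC20B, AOPEP, DALRD3, PTK2 and NSRP1 were not in it. Any other miRNA given with its own values is said to be named after its value was seen. Replicate pairs differed by a chi-square of 46.0 to 153 per degree of freedom on reads, so none was taken as a repeat of another. Yak gene names and neighbours come from RefSeq (Bosgru_T2T1.0), with no coordinates. Alternatives were other pseudocounts, filters and scalings, the replicate number as a block, edgeR, DESeq2, and leaving out each library, also with the tested miRNAs held fixed, which was added after the data were seen.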

Additional observations from a re-analysis of the deposited data

How the results depend on the processing

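The members kept their sign in each alternative that gave a value. miR-224 ranged from 1.205 (median centring) to 1.55 (DESeq2 1.42.0), miR-452 from 0.91 to 1.26, miR-149-5p from 3.41 (pseudocount of 10 RPM) to 4.04, miR-149-3p from 0.21 to 4.99 and miR-335 from -7.22 to -3.32. miR-335 was not tested without any 1 hair matrix library, and miR-149-3p without any 1 dermal papilla library or with a filter of 10 RPM, because they then failed the filter. With the tested miRNAs held fixed, an alternative added after the data were seen, all 5 were tested and called.

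Over all entries, calls higher in dermal papilla and in hair matrix cells were 127 and 100. They were 77 and 40 with a pseudocount of 10 RPM, 80 and 47 with a filter of 10 RPM, and 151 were higher in hair matrix cells without the 5 most abundant miRNAs. For the intronic list, 8 and 7 were higher in dermal papilla cells with that pseudocount and that filter, and 9 and 10 were higher in hair matrix cells after median centring and without the 5 most abundant miRNAs. The setting without the 5 most abundant miRNAs changed the weight of the pseudocount as well as the scaling. Leaving out 1 library gave 65 to 128 and 60 to 104 calls over all entries and 6 to 13 list calls higher in dermal papilla cells. The low ends come from the filter, since with the tested miRNAs held fixed the counts were 125 to 128 and 100 to 104. With the replicate number as a replicate block there were 127 and 101 calls. Same-numbered libraries deviated together with correlations of 0.141, 0.080 and -0.275, and differently numbered ones with -0.430 to 0.388. With 3 libraries in each group, these values cannot show whether the numbers pair the samples.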
